A study of Mus musculus with 6 samples.

Results

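The 10 genes described here, Hspa5, Hsp90b1, Xbp1, Ddit3, Herpud1, Dnajb9, Pdia4, Pdia6, Sdf2l1 and Calr, belong to the unfolded protein response of the endoplasmic reticulum. They were found by exact gene symbol among the 38926 symbols of the deposited table, and all 10 were present. RNA sequencing was done on LSK cells, the fraction of mouse bone marrow that lacks lineage antigens and carries Sca1 and cKit, and in which haematopoietic stem cells and multipotent progenitors are found. The series holds 3 libraries labelled KO, from mice with both dopamine receptor genes Drd2 and Drd3 knocked out, and 3 libraries labelled WT, from wild type mice. All mice were C57BL/6, aged 8 to 12 weeks and untreated, and the cells came from femur and tibia. The alleles, whether animals were pooled, and whether replicates were separate animals are not stated in the labels, and p-values cover no more than the spread between these libraries.

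Cells that make much secreted or membrane protein depend on chaperones in the endoplasmic reticulum, of which BiP, the product of Hspa5, is the best known. When unfolded proteins build up, BiP leaves 3 sensors in the membrane, IRE1 (gene Ern1), PERK (Eif2ak3) and ATF6. IRE1 splices the Xbp1 mRNA into a form that codes for an active transcription factor, PERK slows translation and favours that of ATF4, and ATF6 is cut in the Golgi to free another factor. XBP1 and ATF6 act on chaperone and degradation genes, and ATF4 on amino acid and stress genes, Ddit3 among them. Plasma cells rely on XBP1 for antibody secretion, and in human haematopoietic stem cells the PERK branch has been linked to the fate of the cells under stress.

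The promoters of some of these genes hold short elements through which the factors are known to act. The stretches that carry them are shown because 4 of the genes whose values are set against each other share one element. The sequences are from RefSeq (build GRCm38.p6, the mm10 genome), in which each promoter runs from 250 bases before to 50 bases after the start of the gene. All 10 genes had an entry. Both strands of 32851 promoter entries were searched for ERSE (CCAAT and CCACG with 9 bases between them), which ATF6 binds with NF-Y, for ERSE-II (ATTGG and CCACG with 1 base between them), for the XBP1 element UPRE (TGACGTGG) and for the ATF4 element CARE (TGATGNAA). ERSE was found in 39 entries (0.119%), among them Hspa5, Calr, Pdia6 and, in 2 copies, Hsp90b1. ERSE-II was found in 12 entries (0.0365%), Herpud1 among them. CARE was found in 1304 entries (3.97%), with Herpud1 the single member, and UPRE in 222 entries (0.676%) and in none of the 10 genes. Capitals below mark the elements, which do not overlap one another. All sequences read along the strand of the gene, so an element on the opposite strand appears as its reverse complement.
Hspa5: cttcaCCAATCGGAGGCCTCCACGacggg
Calr: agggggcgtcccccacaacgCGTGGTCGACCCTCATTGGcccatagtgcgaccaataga
Hsp90b1: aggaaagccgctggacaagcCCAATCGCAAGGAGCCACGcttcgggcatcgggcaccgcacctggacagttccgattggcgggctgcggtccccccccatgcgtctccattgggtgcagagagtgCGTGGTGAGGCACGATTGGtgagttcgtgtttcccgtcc
Pdia6: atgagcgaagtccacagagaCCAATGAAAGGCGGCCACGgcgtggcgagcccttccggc
Herpud1: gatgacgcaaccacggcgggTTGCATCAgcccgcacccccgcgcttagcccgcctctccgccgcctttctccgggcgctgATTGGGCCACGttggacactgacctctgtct
Asns: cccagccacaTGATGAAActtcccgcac

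The Hspa5 stretch is chr2:34772020-34772048 on the plus strand, with ERSE beginning 65 bases upstream of the RefSeq start. It lies inside the first exon of the longest Hspa5 transcript of GENCODE M21, which starts further upstream. The Calr stretch is chr8:84847055-84847113 on the minus strand, with ERSE on the opposite strand from 162 bases upstream. The Hsp90b1 stretch is chr10:86705513-86705676 on the minus strand, with copies from 212 bases upstream on the strand of the gene and from 107 bases upstream on the opposite strand. The Pdia6 stretch is chr12:17266471-17266529 on the plus strand, with ERSE from 98 bases upstream. The Herpud1 stretch is chr8:94386297-94386407 on the plus strand, with CARE on the opposite strand from 112 bases upstream and ERSE-II from 52 bases upstream. Asns, the asparagine synthetase gene and an ATF4 target that is no member, is shown for the comparison of ATF4 targets. Its stretch is chr6:7693215-7693242 on the minus strand, with CARE from 23 bases upstream, within the first exon of its longest GENCODE transcript.

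No library had any reads of Drd2. Drd3 was at 1.62, 3.08 and 3.04 FPKM in KO-labelled libraries, against 0 in each of those labelled WT. This is the reverse of what a loss of Drd3 reads in the knockout would give. The alleles are not stated, so an allele that leaves or creates Drd3 reads and exchanged labels cannot be told apart. Every direction here is therefore one between libraries as labelled. FPKM values, reads scaled by gene length and sequencing depth, were recovered as whole reads for all 17183 genes above 0 in at least 2 libraries, and came to between 5232980 and 7130124 reads a library. KO-labelled replicates 1 and 3 had no reads of the Y-linked gene Ddx3y and were high in the immunoglobulin gene Igkc, at 3182 and 1173 FPKM, whereas KO-labelled replicate 2 and those labelled WT had Y-linked reads and at most 4.93 FPKM of Igkc. Label and Y-linked reads, and with them sex, are thus partly confounded. Pearson's r across the tested genes was 0.963 to 0.970 between libraries labelled KO and 0.983 to 0.985 between those labelled WT. The gate's own markers were present, with Kit at 101 ± 25.2 and 121 ± 25.1 FPKM and Ly6a, which encodes Sca1, at 133 ± 25.01 and 122 ± 10.2 FPKM in the KO-labelled and WT-labelled libraries (SD, n = 3 each). Fewer cells of a type and less RNA per cell cannot be told apart in such bulk samples.

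All 10 unfolded protein response genes were expressed in both groups, and none passed the test between them. In limma's test on log2(FPKM + 1), with Benjamini-Hochberg adjustment over the 11371 genes whose mean over the libraries was 1 FPKM or more, 0 of 10 were called at an adjusted p under 0.05, where 10.9% of all tested genes were (5.48% higher and 5.43% lower). At an unadjusted p under 0.05 there were 4, Calr, Hsp90b1 and Sdf2l1 lower and Hspa5 higher in KO-labelled libraries, against 27.5% of all genes. Limma's voom on the recovered reads called 1 (Hspa5) and quantile normalisation 2 (Hspa5 and Sdf2l1), where these fits called 13.9% and 11.5% of all genes. With the replicate number as a block 0 members and 7.08% of all genes were called. The log2 fold changes ran from -0.31 to 0.28 with a median of 0.03, beside a median of -0.002 over all tested genes. Their 95% intervals reached from -0.55 to 0.60, so that for no member did the interval include a fold change below 0.682 or above 1.52.

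The genes differed far more from one another than between the groups. Hspa5 was the highest, at 539 ± 14.7 FPKM in KO-labelled libraries and 443 ± 36.7 FPKM in WT-labelled ones (SD, n = 3 each). Calr came next, at 295 ± 11.4 and 358 ± 23.5 FPKM, and then Pdia6, at 163 ± 7.63 and 163 ± 10.03 FPKM. Each of these 3 lay apart from its neighbours in the order in both groups. In the libraries labelled KO the next 4 were Herpud1, Hsp90b1, Xbp1 and Pdia4, whose neighbouring ranges overlapped, followed by Sdf2l1. In the libraries labelled WT, Hsp90b1 came next and lay alone, and Herpud1, Pdia4, Sdf2l1 and Xbp1 followed with neighbouring ranges that overlapped. Dnajb9, at 33.4 ± 6.69 and 27.7 ± 2.01 FPKM, and Ddit3, at 13.8 ± 3.99 and 11.9 ± 0.652 FPKM in the KO-labelled and WT-labelled libraries, were lowest in both and apart from the rest. Single libraries held between 89 reads (Ddit3) and 13251 reads (Hspa5) of a member.

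**Figure D1:**
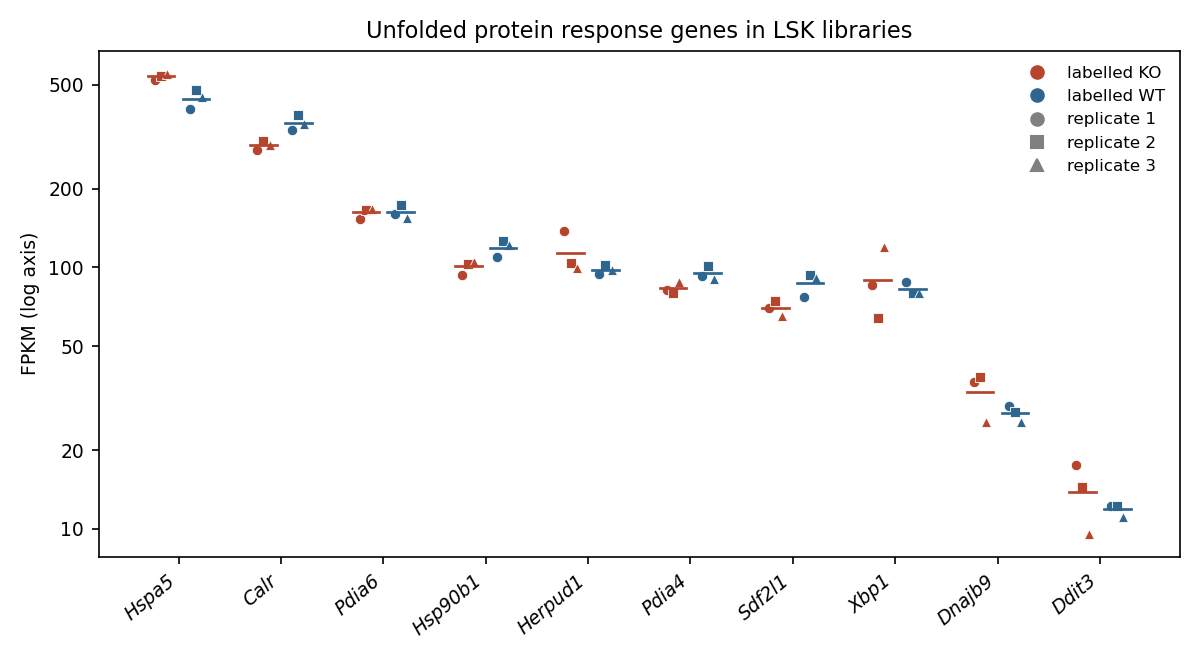
FPKM (log axis) of the 10 unfolded protein response genes in each library, with the libraries labelled KO in red to the left of those labelled WT in blue; points are single libraries, shaped by replicate, and lines are group means. Hspa5 sits higher, and Calr, Hsp90b1, Pdia4 and Sdf2l1 sit lower, in all 3 KO-labelled libraries than in any labelled WT, while Herpud1, Xbp1, Dnajb9 and Ddit3 spread widely among the libraries labelled KO.

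The chaperones and folding enzymes come first. Hspa5 (chr2:34771970-34777547, plus strand) encodes the Hsp70-type chaperone that binds nascent chains in the endoplasmic reticulum. It was at 523, 542 and 552 FPKM in KO-labelled libraries, against 404, 477 and 449 FPKM in WT-labelled ones. All 3 KO-labelled libraries lay above all 3 labelled WT. The log2 fold change was 0.28 ± 0.10 (SE) with a limma adjusted p of 0.0908, and it ran from 0.22 to 0.35 over the 16 alternative settings tried. Its adjusted p ran from 0.0237 with voom to 0.283 over these settings and was 0.0304 with quantile normalisation, so that its call depends on the scaling and the test.

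Calr (chr8:84841850-84846934, minus strand) encodes calreticulin, which binds calcium and glycoproteins in the lumen. It was at 283, 306 and 295 FPKM in KO-labelled libraries, against 337, 383 and 354 FPKM in WT-labelled ones. The groups did not overlap, and the log2 fold change was -0.28 ± 0.09 (limma adjusted p = 0.0832; 0.0514 to 0.353 over the alternatives). Hsp90b1 (chr10:86690209-86705509, minus strand) encodes GRP94, the Hsp90 of the endoplasmic reticulum. It was at 93.8, 104 and 105 FPKM in KO-labelled libraries, against 110.1, 126 and 122 FPKM in WT-labelled ones. Again the groups did not overlap, with a log2 fold change of -0.24 ± 0.10 (limma adjusted p = 0.142; 0.0799 to 0.435 over the alternatives).

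Sdf2l1 (chr16:17130138-17132383, minus strand) encodes a partner of the Hsp40-type co-chaperones of BiP. It was at 69.8, 74.7 and 65.0 FPKM in KO-labelled libraries, against 76.9, 93.3 and 91.2 FPKM in WT-labelled ones. All libraries labelled KO lay below all labelled WT, with WT-labelled replicate 1 the nearest to them. The log2 fold change of -0.31 ± 0.11 had the largest size among the 10 genes (limma adjusted p = 0.0960; 0.0449 to 0.439 over the alternatives), and passed with quantile normalisation alone.

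Pdia4 and Pdia6 encode disulphide isomerases, which form and rearrange disulphide bonds in secreted proteins. Pdia4 (chr6:47796141-47813430, minus strand) was at 82.3, 80.2 and 87.8 FPKM in KO-labelled libraries, against 93.1, 101 and 90.0 FPKM in WT-labelled ones. The groups did not overlap, but KO-labelled replicate 3 and WT-labelled replicate 3 lay close together (log2 fold change -0.18 ± 0.09, limma adjusted p = 0.238). Pdia6 (chr12:17266545-17284770, plus strand) was at 154, 167 and 167 FPKM in KO-labelled libraries, against 161, 174 and 154 FPKM in WT-labelled ones. Its groups overlapped throughout, with a log2 fold change of -0.002 and a 95% interval from -0.21 to 0.20 (limma adjusted p = 0.991). Its sign turned under 6 of the 16 settings, in a range of -0.04 to 0.05.

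Thus 5 of the 10 genes had groups that did not overlap, 4 lower and 1 higher in KO-labelled libraries. Over all tested genes 32.8% did not overlap, 16.6% lower and 16.2% higher. Since their groups do not overlap, the direction of these 5 genes could not turn when libraries were left out. It also held under the settings that rescale the values, which are median scaling, quantile normalisation and voom. In KO-labelled replicate 2 alone, which has Y-linked reads and little Igkc, Hspa5 lay 0.29 above the WT mean on the log2(FPKM + 1) scale. There Pdia4, Calr, Sdf2l1 and Hsp90b1 lay at -0.24, -0.23, -0.21 and -0.20 against the WT mean. The directions in this single library follow from the lack of overlap, so only the sizes add to it. Whether Y-linked or Igkc differences bear on these genes was not tested.

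The ratio of Hspa5 to each other member was taken within each library, where sequencing depth cancels. These ratios were chosen after the values were seen and carry no test. Hspa5 over Calr was 1.85, 1.77 and 1.87 in KO-labelled libraries, against 1.20, 1.24 and 1.27 in WT-labelled ones. The means were 1.83 ± 0.0504 and 1.24 ± 0.0359 (SD, n = 3 each), 1.48 times apart. Hspa5 over Hsp90b1 was 5.57, 5.23 and 5.24 in KO-labelled libraries, against 3.67, 3.78 and 3.69 in WT-labelled ones. For Sdf2l1 and Pdia4 the mean ratio in KO-labelled libraries was 1.52 and 1.38 times that in WT-labelled ones. That these 4 ratios did not overlap between the groups follows from the levels, since Hspa5 was higher and the 4 genes were lower in each library labelled KO; the ratios add only the size of the gap. Pdia6, whose own levels overlapped, also had ratios that did not, at 3.40, 3.25 and 3.29 in KO-labelled libraries, against 2.51, 2.74 and 2.91 in WT-labelled ones. With Hspa5 higher in each library labelled KO, a gene of even level can have such ratios. The share of all tested genes whose ratios would not overlap was not taken, so these ratios describe Hspa5 and are no result about Pdia6.

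The ratios of Hspa5 to the other 4 members, Herpud1, Dnajb9, Xbp1 and Ddit3, overlapped between the groups. Their means in KO-labelled libraries were 1.07, 1.04, 1.19 and 1.11 times those in WT-labelled ones. Hyou1, which encodes a nucleotide exchange factor of BiP and is no member, ran the other way. Hspa5 over Hyou1 was 92.1, 74.6 and 44.4 in KO-labelled libraries, against 93.0, 173 and 117 in WT-labelled ones. The groups did not overlap, though KO-labelled replicate 1 and WT-labelled replicate 1 lay close together, and the KO-labelled mean was 0.552 times the WT-labelled one. Hyou1 had a WT-labelled mean of 3.65 FPKM, and its own call was lost under 9 of 16 alternative settings. For Uggt1, a folding gene that is also no member, the mean ratio was 2.46 times as high in KO-labelled libraries as in WT-labelled ones. Ratios to other partners of BiP were not taken.

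**Figure D2:**
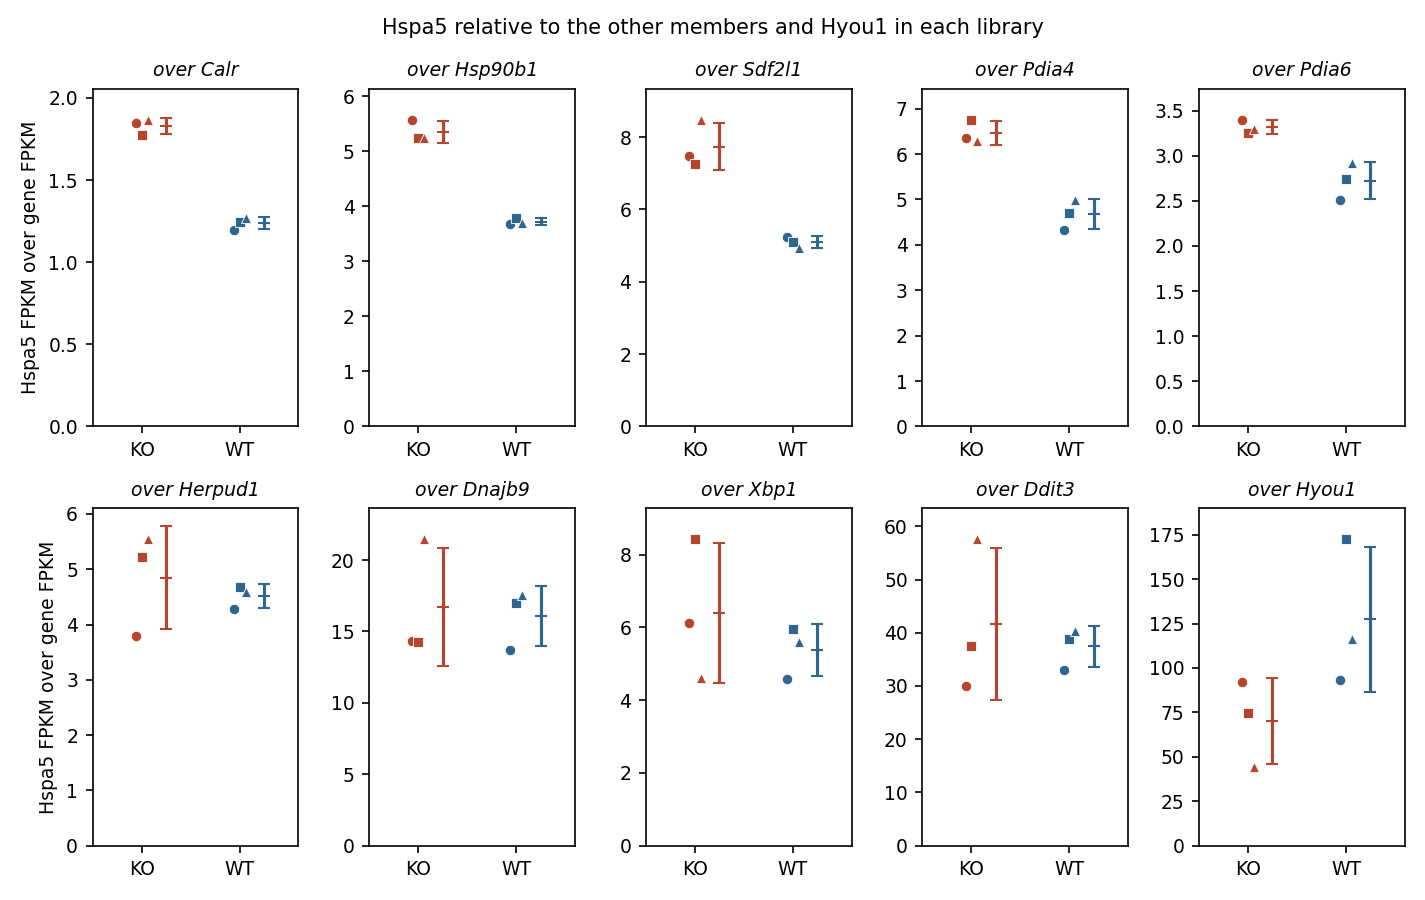
Hspa5 FPKM divided by the FPKM of each other member, and of Hyou1, in the same library, for the libraries labelled KO (red, left) and WT (blue, right); points are libraries, shaped by replicate as in the plot of levels, and bars are mean and SD of 3. Every library labelled KO lies above every one labelled WT for Calr, Hsp90b1, Sdf2l1, Pdia4 and Pdia6, the groups overlap for Herpud1, Dnajb9, Xbp1 and Ddit3, and the libraries labelled KO lie lower for Hyou1.

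Herpud1 and Dnajb9 serve the disposal of misfolded proteins. Herpud1 (chr8:94386438-94395377, plus strand) encodes a membrane protein of the ubiquitin ligase complex for endoplasmic reticulum proteins. It was at 138, 104 and 99.5 FPKM in KO-labelled libraries, against 94.5, 102 and 97.8 FPKM in WT-labelled ones. KO-labelled replicate 1 was high and the other 5 lay together (log2 fold change 0.20 ± 0.13, limma adjusted p = 0.352). Dnajb9 (chr12:44205559-44210326, minus strand) encodes ERdj4, a co-chaperone of BiP that also restrains IRE1. It was at 36.5, 37.9 and 25.7 FPKM in KO-labelled libraries, against 29.5, 28.1 and 25.6 FPKM in WT-labelled ones. KO-labelled replicates 1 and 2 lay above all labelled WT and replicate 3 lay within them. The log2 fold change was 0.24 ± 0.15 (limma adjusted p = 0.339; 0.0372 to 0.628 over the alternatives). Without KO replicate 3 it was 0.41 and Dnajb9 was the single member called (adjusted p = 0.0372), in a fit that called 14.1% of all genes.

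Xbp1 and Ddit3 encode transcription factors. Xbp1 (chr11:5520659-5525893, plus strand) was at 85.6, 64.2 and 119 FPKM in KO-labelled libraries, against 88.2, 80.0 and 80.1 FPKM in WT-labelled ones. KO-labelled replicate 3 lay above, and KO-labelled replicate 2 below, every library labelled WT. The log2 fold change was 0.07 ± 0.19 (limma adjusted p = 0.845), and it was -0.36 without KO-labelled replicates 1 and 3 and -0.16 without KO replicate 3. The table gives 1 value per gene, so the spliced form that IRE1 makes was not separated from the unspliced one. Ddit3 (chr10:127290774-127296288, plus strand) encodes CHOP, a factor linked to cell death under lasting stress. It was at 17.5, 14.4 and 9.58 FPKM in KO-labelled libraries, against 12.2, 12.2 and 11.1 FPKM in WT-labelled ones, from 216, 171 and 89 reads against 131, 123 and 119. KO-labelled replicates 1 and 2 lay above and replicate 3 below all labelled WT, with a log2 fold change of 0.17 ± 0.19 (limma adjusted p = 0.618) that was -0.01 without KO replicate 1.

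Herpud1, Dnajb9, Xbp1 and Ddit3 had larger coefficients of variation among the libraries labelled KO than among those labelled WT, and the 6 chaperone and isomerase genes had smaller ones. Of all tested genes 65.5% had the larger one among the libraries labelled KO, where the median over genes was 15.5%, against 11.1% among those labelled WT. For Xbp1 it was 31.0% in KO-labelled libraries and 5.67% in WT-labelled ones, where counting error alone gives 2.32% and 2.46%. For Ddit3 it was 28.8% and 5.49%, where counting gives 7.94% and 8.97%. For Hspa5 it was 2.74% in KO-labelled libraries and 8.29% in WT-labelled ones. Counting error leaves out any variation between separate samples. Among the libraries labelled KO, replicate 1 was highest for Herpud1 and Ddit3, and replicate 3 for Xbp1. For Dnajb9 replicates 2 and 1 lay close together at the top (37.9 and 36.5 FPKM). Replicate 3 was the lowest for Herpud1, Ddit3 and Dnajb9, and replicate 2 for Xbp1.

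Xbp1, Herpud1, Dnajb9 and other secretory genes are abundant in plasma cells, and immunoglobulin reads were high in KO-labelled replicates 1 and 3. Igkc was at 3182, 4.93 and 1173 FPKM in KO-labelled libraries, against 2.48, 2.11 and 1.98 FPKM in WT-labelled ones. The joining chain, listed as Igj, was at 39.8, 0.239 and 33.8 FPKM in KO-labelled libraries, against 0.530, 0.282 and 0 FPKM in WT-labelled ones. Other markers of plasma cells varied in their own ways. Sdc1, the plasma cell surface protein CD138, was at 12.8, 9.42 and 10.9 FPKM in KO-labelled libraries, against 16.5, 12.6 and 13.3 FPKM in WT-labelled ones. Prdm1, the plasma cell transcription factor, was at 0.808, 0.132 and 0.201 FPKM in KO-labelled libraries, against 0.292, 0.404 and 0.117 FPKM in WT-labelled ones. Mzb1, which encodes a chaperone of antibody-secreting cells, was at 1.23, 3.04 and 7.53 FPKM in KO-labelled libraries, against 1.24, 0.377 and 1.59 FPKM in WT-labelled ones. Prdm1 was thus highest in KO-labelled replicate 1 and Mzb1 in KO-labelled replicate 3, whereas Sdc1 had its lowest values in libraries labelled KO.

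Of 29 plasma cell markers, 26 were in the table, 10 of these had a mean under 1 FPKM, and Ighg1 was at 0 in every library. Without Xbp1, their summed level was 325 to 3769 FPKM in KO-labelled libraries and 488 to 519 FPKM in WT-labelled ones. Of the 16 tested, 1 was called higher by limma, the light chain gene Iglc2 (6.404, 1.19 and 2.43 FPKM in KO-labelled libraries, against 0, 0.282 and 0.264 FPKM in WT-labelled ones), a call that leaving out WT replicate 1, 2 or 3 ended (limma adjusted p = 0.0944, 0.0835 and 0.0726; 0.0138 to 0.287 over its alternatives). Iglc2 is named because it is the single call. The log2 fold change was positive for 13 of the 16, with a median of 0.40 and 6 genes at an unadjusted p under 0.05. Of 16 tested erythroid markers 10 were called higher, 6 without WT replicate 2, and their summed level was 2754 to 4778 FPKM in KO-labelled libraries and 1646 to 2124 FPKM in WT-labelled ones. Of 6 tested B cell markers limma called 0, with 0 at an unadjusted p under 0.05, 0 by voom and 1 without KO replicate 3. The part of plasma and erythroid cells in the values of the 10 genes was not tested. Without KO-labelled replicates 1 and 3, limma called 0 of the 10 genes.

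**Figure D3:**
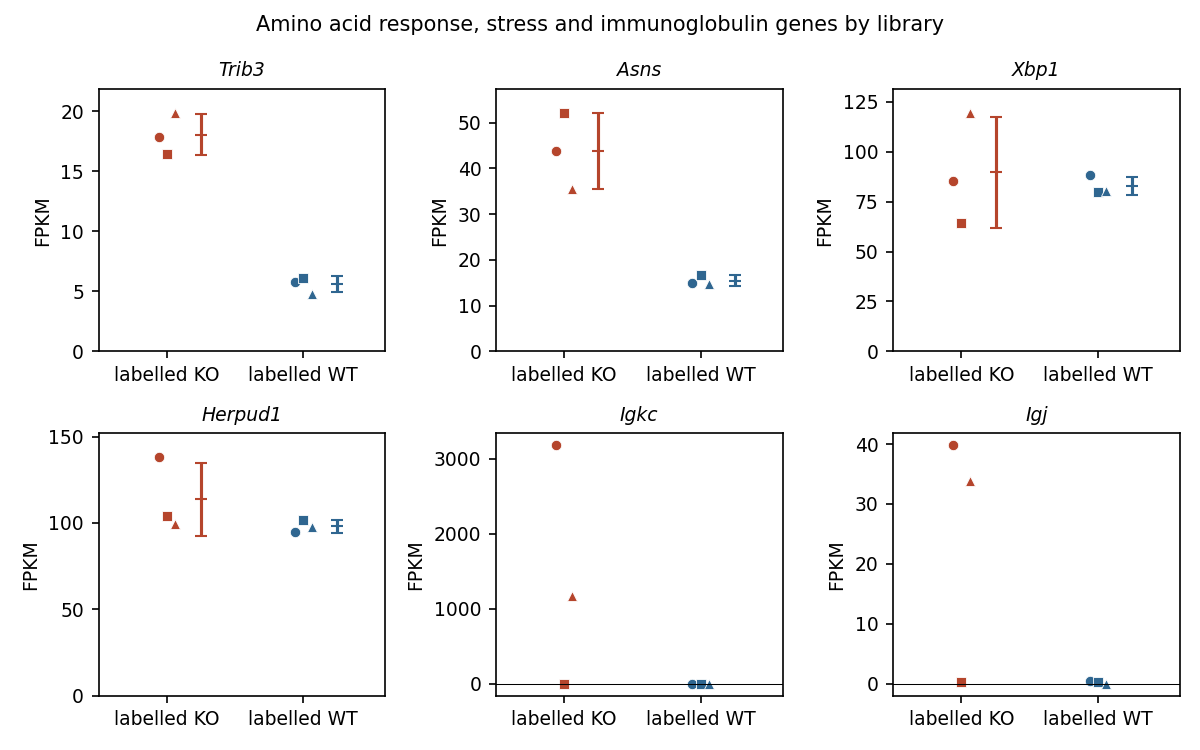
FPKM of Trib3, Asns, Xbp1, Herpud1, Igkc and Igj in each library, with the libraries labelled KO (red) left of those labelled WT (blue); points are libraries, shaped by replicate as in the plot of levels, and bars in the first 4 panels are mean and SD of 3. Trib3 and Asns lie apart between the groups in all 6 libraries, Igkc and Igj are high in KO-labelled replicates 1 and 3 alone, and Xbp1 is highest in replicate 3 and lowest in replicate 2 of those labelled KO.

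The 3 sensors were expressed at low levels in both groups. Ern1 was at 1.87, 1.26 and 2.28 FPKM in KO-labelled libraries, against 2.82, 1.399 and 1.57 FPKM in WT-labelled ones (log2 fold change -0.05, limma adjusted p = 0.920). Eif2ak3 was at 2.94, 1.92 and 3.87 FPKM, against 5.13, 3.24 and 4.34 FPKM (-0.44, adjusted p = 0.261), and Atf6 at 1.76, 1.91 and 2.28 FPKM, against 2.43, 3.44 and 2.22 FPKM (-0.30, limma adjusted p = 0.369). The groups overlapped for all 3. Atf4, the factor that PERK signalling favours, was at 77.7, 61.2 and 50.03 FPKM in KO-labelled libraries, against 57.5, 54.6 and 54.5 FPKM in WT-labelled ones (0.16, limma adjusted p = 0.532). As with Ddit3, KO-labelled replicate 1 was highest and replicate 3 lowest. Of the 12 listed genes for sensors and their processing, 8 were tested and limma called 0, with 2 at an unadjusted p under 0.05 (Atf6b and Mbtps1, both lower). Voom also called 0.

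Of 31 tested PERK and ATF4 targets, 4 rose and 1 fell in limma's test (16.1%, against 10.9% of all genes), with a median log2 fold change of 0.11. Trib3, a pseudokinase gene induced by ATF4 and CHOP, was at 17.9, 16.4 and 19.9 FPKM in KO-labelled libraries, against 5.80, 6.10 and 4.82 FPKM in WT-labelled ones (log2 fold change 1.54 ± 0.14, limma adjusted p = 0.000396). Asns, which makes asparagine, was at 43.7, 52.1 and 35.4 FPKM in KO-labelled libraries, against 14.9, 16.8 and 14.7 FPKM in WT-labelled ones (1.43 ± 0.14, limma adjusted p = 0.000751). Eif4ebp1, a repressor of cap-dependent translation, was at 182, 183 and 150.1 FPKM, against 103, 97.0 and 115 FPKM (0.70 ± 0.11, limma adjusted p = 0.00595). For these 3 genes the groups lay well apart and all 16 alternative settings called them. KO-labelled replicate 2, with little Igkc, lay 1.41 above the WT mean for Trib3 and 1.69 above it for Asns on the log2 scale. Its direction there follows from the gap between the groups.

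The other calls among ATF4 targets were less stable. Slc7a5, a transporter of large neutral amino acids, fell to 25.8, 25.6 and 22.1 FPKM in KO-labelled libraries, against 33.8, 37.5 and 33.9 FPKM in WT-labelled ones (-0.50 ± 0.11, limma adjusted p = 0.0199; 0.0134 to 0.153 over the alternatives). Its call was lost without WT replicates 1, 2 and 3 (adjusted p = 0.0607, 0.102 and 0.0657). Cebpb, a myeloid transcription factor, was at 1297, 1175 and 1021 FPKM in KO-labelled libraries, against 837, 903 and 694 FPKM in WT-labelled ones (0.52 ± 0.13, limma adjusted p = 0.0357; 0.00563 to 0.169 over the alternatives). Its call was lost without any 1 of 5 libraries, with adjusted p of 0.107 and 0.0869 without KO replicates 1 and 2 and of 0.0956, 0.0761 and 0.14 without WT replicates 1, 2 and 3. Asns and Slc7a5 thus moved in opposite directions within the list. The number of calls in the list was 9 without KO replicate 3 and 3 without any 1 library labelled WT.

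**Figure D4:**
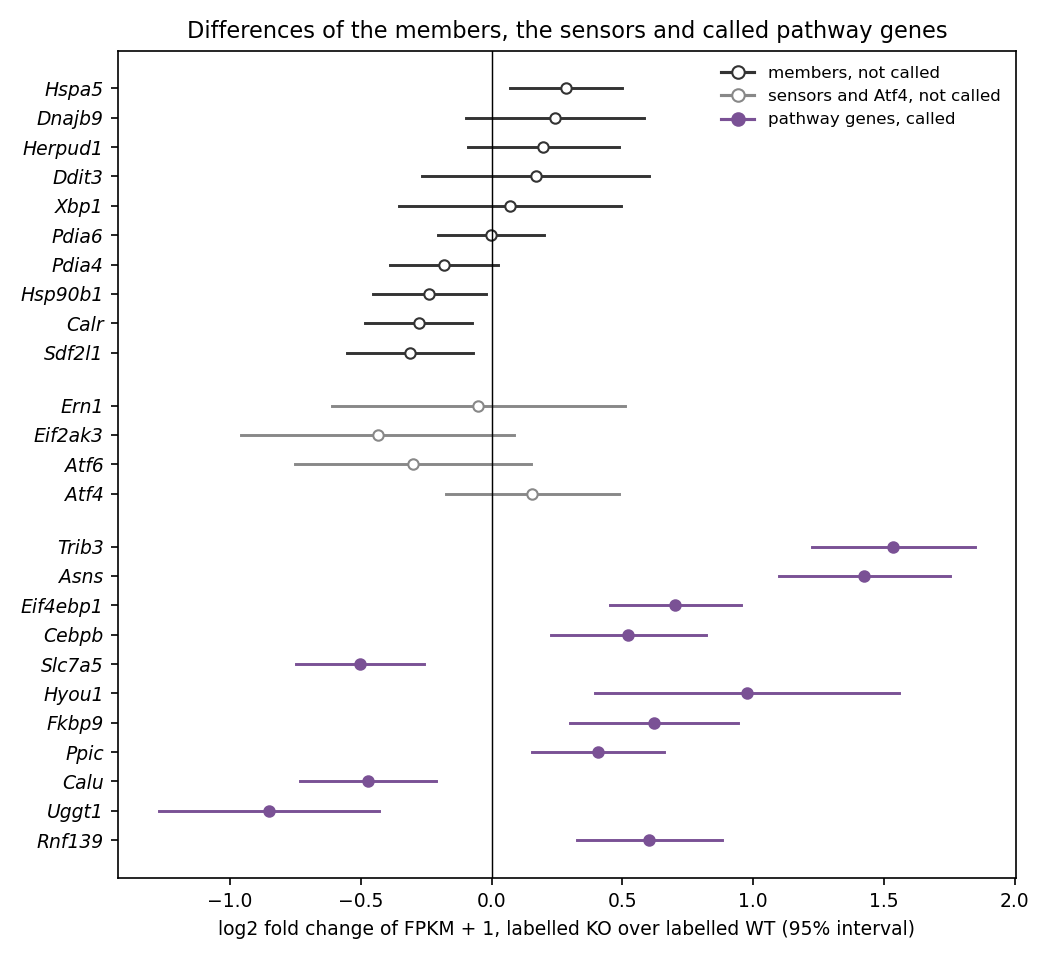
Log2 fold change of FPKM + 1, libraries labelled KO over those labelled WT, with 95% intervals from limma, for the 10 members, the 3 sensors with Atf4, and pathway genes that passed the test; open circles did not pass and filled ones did. The members lie between -0.31 and 0.28, whereas Trib3 and Asns lie at 1.54 and 1.43.

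Other chaperones and folding enzymes of the endoplasmic reticulum had calls on both sides. Of 44 tested, 3 rose and 2 fell (11.4%, against 10.9% of all genes), with a median log2 fold change of -0.002. Uggt1, which re-glucosylates misfolded glycoproteins so that calreticulin can bind them again, fell to 3.63, 4.95 and 6.34 FPKM in KO-labelled libraries, against 9.09, 10.8 and 8.998 FPKM in WT-labelled ones (-0.85 ± 0.19, limma adjusted p = 0.0216). Fkbp9, a prolyl isomerase gene, was at 33.6, 24.8 and 26.4 FPKM, against 17.8, 15.9 and 20.1 FPKM (0.62 ± 0.14, limma adjusted p = 0.0255). Calu, for the calcium-binding protein calumenin, fell to 29.0, 28.2 and 34.8 FPKM, against 46.2, 43.1 and 39.4 FPKM (-0.47 ± 0.12, limma adjusted p = 0.0323). Hyou1 was at 5.67, 7.26 and 12.4 FPKM in KO-labelled libraries, against 4.34, 2.76 and 3.85 FPKM in WT-labelled ones (0.98 ± 0.26, limma adjusted p = 0.0422). These calls were lost when single libraries were left out. The direction of these genes could not turn in such fits, since their groups do not overlap. Most such fits also called fewer genes in all. From 1240, the number fell to 531, 370 and 509 without WT replicates 1, 2 and 3. It was 824, 883 and 1598 without KO replicates 1, 2 and 3. Without WT replicate 2, the adjusted p was 0.104 for Uggt1, 0.114 for Fkbp9, 0.122 for Calu and 0.159 for Hyou1, and 0 of the 44 genes were called. Without WT replicate 1 these genes also missed it (0.0655, 0.0838, 0.12 and 0.0827), as did Uggt1, Calu and Hyou1 without WT replicate 3 (0.0651, 0.0663 and 0.101). Among the libraries labelled KO, leaving out replicate 1 ended the calls of Uggt1, Fkbp9 and Calu (0.0529, 0.0693 and 0.0886), replicate 2 those of Uggt1, Calu and Hyou1 (0.0527, 0.0841 and 0.0796), and replicate 3 that of Hyou1 (0.0646). Over all alternatives the adjusted p reached from 0.00459 to 0.144 for Uggt1, 0.0131 to 0.228 for Fkbp9, 0.0148 to 0.122 for Calu and 0.0221 to 0.255 for Hyou1.

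Few genes for removing misfolded proteins or for moving proteins into the endoplasmic reticulum were called. Of 34 tested genes of endoplasmic reticulum-associated degradation, 1 rose (2.94%, against 10.9%), with a median log2 fold change of 0.09. It was Rnf139, a membrane ubiquitin ligase gene, at 39.4, 36.8 and 39.1 FPKM in KO-labelled libraries, against 28.1, 26.2 and 21.1 FPKM in WT-labelled ones (0.60 ± 0.12, limma adjusted p = 0.0165; 0.00545 to 0.142 over the alternatives). Its call was lost without WT replicates 2 and 3 (adjusted p = 0.0625 and 0.0605). Of 38 genes of the translocon, signal peptidase and glycosylation, limma called 0, with 3 at an unadjusted p under 0.05, 1 called by voom and 3 called without KO replicate 3. The median of that list was -0.04.

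Of 13 genes of the endoplasmic reticulum calcium store, 2 rose (15.4%, against 10.9% of all genes, with a median log2 fold change of -0.01). They were Grina, for a membrane protein tied to calcium release, at 40.3, 45.0 and 36.4 FPKM in KO-labelled libraries, against 30.3, 28.3 and 29.7 FPKM in WT-labelled ones (0.44 ± 0.11, limma adjusted p = 0.0313), and Orai1, the plasma membrane channel that refills the store, at 70.9, 58.3 and 70.3 FPKM, against 51.9, 48.5 and 50.1 FPKM (0.39 ± 0.11, limma adjusted p = 0.0432). Both missed the threshold without any 1 library labelled WT (0.0859, 0.131 and 0.097 for Grina, 0.103, 0.161 and 0.126 for Orai1) and without KO replicate 1 (0.0724 and 0.114), as did Grina without KO replicate 2 (0.0794) and Orai1 without KO replicate 3 (0.0669). Their adjusted p ran from 0.0140 to 0.131 and from 0.0245 to 0.351 over the alternatives.

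Of 34 cytosolic and mitochondrial chaperones, 1 rose and 1 fell (5.88%, with a median log2 fold change of 0.03). Hspa8, the constitutive cytosolic relative of BiP, fell to 398, 381 and 421 FPKM in KO-labelled libraries, against 502, 589 and 582 FPKM in WT-labelled ones (-0.48 ± 0.10, limma adjusted p = 0.0182; 0.00469 to 0.102 over the alternatives). Its reads may be shared with processed pseudogenes, and it missed the threshold without KO replicate 2 and without WT replicates 2 and 3 (adjusted p = 0.0518, 0.102 and 0.0869). Dnajb4, a cytosolic Hsp40 gene, was at 18.5, 18.2 and 23.1 FPKM, against 12.2, 9.84 and 12.8 FPKM (0.73 ± 0.14, limma adjusted p = 0.0148; 0.00692 to 0.144), and missed it without WT replicate 2 (adjusted p = 0.0709). The list had 4 calls without KO replicate 3 and 0 without WT replicate 2.

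**Figure D5:**
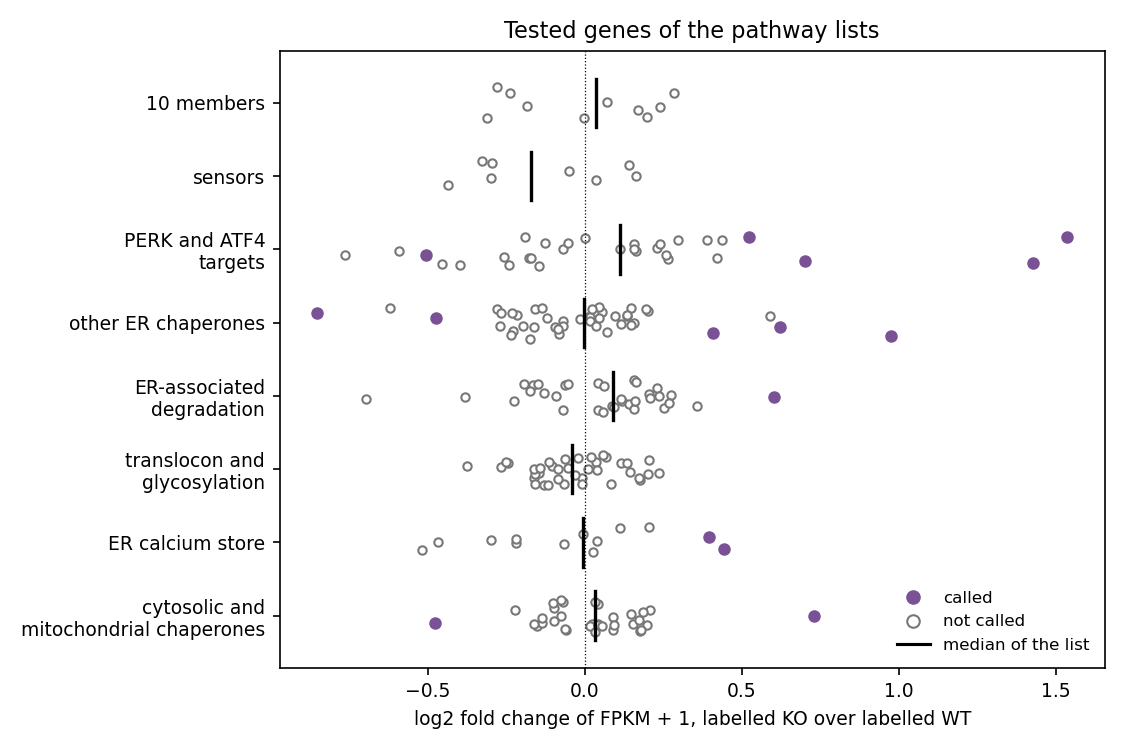
Log2 fold change of FPKM + 1, libraries labelled KO over those labelled WT, for every tested gene of the 10 members and of 7 lists of related genes; filled points passed limma's test, open points did not, and vertical bars are list medians. Called genes lie on both sides in the lists of ATF4 targets, other chaperones and cytosolic chaperones, and the list medians stay within 0.18 of 0.

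The promoter elements shown above were set against these values. Of the 8065 tested genes with a promoter entry, 14 hold ERSE. Limma called 0 of them. At an unadjusted p under 0.05 there were 7 (50%, against 27.5% of all tested genes), and voom called 3 (21.4%, against 13.9%). The 7 include the members Hspa5, Calr and Hsp90b1, and the calls by voom include Hspa5, so these counts partly repeat values given above. The shares of all tested genes are over 11371 genes, with or without a promoter entry. Their median log2 fold change was -0.20, beside -0.002 over all tested genes. The 4 members among them lay at 0.28 (Hspa5), -0.002 (Pdia6), -0.24 (Hsp90b1) and -0.28 (Calr), so that genes with the same element in the same window lay on both sides of 0. Herpud1, with ERSE-II and CARE, lay at 0.20. CARE was in 215 tested genes, of which 14 were called higher and 11 lower (11.6%, against 10.9% of all tested genes). Asns holds it on the strand of the gene, and Trib3 on the opposite strand from 14 bases after its start. A match in a window is a description of letters, and no match says nothing of the factors.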

How the data were processed

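Per the labels' protocols, RNA from sorted LSK cells was made into cDNA with SMART-Seq v4 and into libraries with Nextera XT, which do not mark strand. The authors deposited FPKM values for 38926 gene symbols in 6 libraries. DESeq2 1.18.1, HTSeq 0.6.1, TopHat2 2.1.1, bcl2fastq 2.19.1.403 and the build mm10 are named in the submitters' processing notes; roles and annotation are not given in the sources used here. Each gene has 1 value, and reads of Hsp90b1, Ddit3, Herpud1, Dnajb9 and Pdia6 cannot be told from those of genes overlapping on the other strand.

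The KO-labelled and WT-labelled libraries were compared on log2(FPKM + 1), a pseudocount of 1 FPKM, by linear models with a trended prior variance (limma 3.58.1 under R 4.3.3). The 11371 genes averaging 1 FPKM or more entered the fit. P-values are two-sided, Benjamini-Hochberg adjusted, and called under 0.05. A fold change on this scale understates that of low genes. On simulated data the same code called 79% of the genes given a log2 change of 1, and 8% of those given 0.5. Of its calls there, 9.4% fell on genes given no change. The simulated spread came from reads not scaled for depth, and far fewer genes were given a change than were called here. These shares therefore do not give the power of the test for the members. The members' log2 fold changes ran from -0.31 to 0.28, and their lack of calls does not show them to be unchanged. Within a gene, FPKM ratios between libraries were ratios of whole reads (relative tolerance 1e-11) for each of the 17183 genes found in at least 2 libraries. Their scale was set to GENCODE M21 exon lengths where these matched, in 9801 genes (50.6%). For Hspa5, Dnajb9 and Pdia4 the implied length differed from that of M21, so that their reads may be lower bounds. These reads fed voom, and as a count test they called 1578 genes. Coordinates are from GENCODE M21 (GRCm38). Tables and plots used Python 3.11.15, numpy 2.4.6, pandas 2.3.3 and matplotlib 3.10.9.

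The 10 genes, the lists and the rule for named genes (all members, the sensors with Atf4, up to 4 called genes of each other pathway list by smallest p, and 5 plasma cell markers) were chosen with earlier results of these data known. The 16 alternative settings cover pseudocount, filter, scaling, library weights, voom, the replicate block, Y-linked transcripts and each library left out.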

Additional observations from a re-analysis of the deposited data

How the results depend on the processing

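The 10 genes were refitted under 16 alternatives, giving 160 values, of which 145 kept direction and side of the threshold, 4 passed it and 11 turned sign. Of the genes, 7 turned sign under none. The filters and the replicate block leave a member's log2 fold change as it was, and both fits for Y-linked transcripts give the same one. The 160 values are therefore not separate checks of direction. The number of members called was 0 in the fit of all 6 libraries, 2 with quantile normalisation, 1 with voom on recovered reads, and 0 to 1 when single libraries were left out. The number of all genes called was 1240, against 588 with no filter, 373 with a term for Y-linked transcripts, 514 without the libraries labelled KO that lack them, and 370 to 1598 when single libraries were left out; both fits for Y-linked transcripts rest on KO replicate 2 alone, which in the last of them is assumed to vary like the WT libraries. With the replicate block, 805 genes and 0 members were called. Deviations of same-numbered libraries from their group means correlated at -0.0311, 0.045 and -0.116. The labels give such libraries only a number in common, and whether they were handled together cannot be told from these values. Xbp1 turned to -0.001 with library weights and to -0.36 with the Y-linked term or without the KO libraries lacking Y-linked transcripts, and ran from -0.156 (without KO replicate 3) to 0.286 (without KO replicate 2) when single libraries were left out. Pdia6 turned to 0.012 with median scaling, 0.021 with voom, 0.033 with the Y-linked term or without those KO libraries, 0.037 without KO replicate 1 and 0.045 without WT replicate 2, and was as low as -0.041 without WT replicate 3. Ddit3 ran from -0.009 and Atf4 from -0.005 without KO replicate 1 to 0.393 and 0.308 without KO replicate 3, and Ern1 from -0.179 without WT replicate 2 to 0.157 without WT replicate 1, with 0.097 without KO replicate 2. The cause was not tested. Intervals from reads cover counting error only.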
